A study of Mus musculus with 12 samples.

Results

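The effect of losing Cbfb was examined in CD103-CD11b+ dendritic cells (DCs) of the mouse intestine by comparing 3 libraries labelled Cbfb-cKO with 3 labelled WT, which are 6 of the 12 libraries of the study. Members were chosen by their titles alone, and the other 6 libraries, of CD103+CD11b- DCs with 3 per genotype, were kept in the model and used for comparison. Cells had been sorted by flow cytometry as CD45+CD64-CD11c+MHC-II+ cells of the small intestine and then by CD103 and CD11b. In the cKO mice a floxed Cbfb gene was deleted by Cre from a CD11c transgene, which acts in CD11c-expressing cells and so in DCs and in some other leukocytes. The control mice of the study's cytometry carried the same transgene with unfloxed Cbfb, whereas the sequenced controls are labelled only as wild type. All mice are labelled as of mixed background strain, the 3 samples of a group came from different mice, and the age of these mice is not given in the sources used here. Whether samples of the same replicate number share a litter, or in the 2 subsets a mouse, is likewise not stated, so the p-values measure the spread between these mice and preparations.

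Cbfb encodes the subunit that Runx1, Runx2 and Runx3 share, and it raises the affinity of these transcription factors for DNA without binding DNA itself. Runx/Cbfb complexes can activate or repress genes, and in DCs and Langerhans cells they are known to act along the TGF-beta pathway. Intestinal CD11b+ DCs belong to the cDC2 lineage, which presents antigen on MHC class II to CD4+ T cells, and the CD103- cells among them stand apart from CD103+CD11b+ cDC2s, which depend on Notch2 and TGF-beta signals.

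The 6 libraries held between 2161929 and 4832545 reads on genes, and the library labelled cKO replicate 3 was the shallowest. In this library a gene with 3 counts has a level of 1.53 CPM (counts scaled to the size of the library with the TMM factor), against 0.587 CPM in WT replicate 1, the deepest one. These floors cover counting error only. Markers shared by conventional DCs were present in all 6 libraries. Flt3 had 359, 219.6 and 293 CPM in the WT libraries and 260.0, 216 and 294 CPM in the cKO libraries. H2-Ab1, a class II beta chain gene, had 436, 533 and 565 CPM in the WT libraries and 465, 499 and 949 CPM in the cKO libraries. Genes that mark the CD11b+ lineage, such as Irf4 and Sirpa, were present as well, and the cDC1 receptor Xcr1 had 18.2, 4.0 and 30.2 CPM in the WT libraries and 42.4, 16.4 and 73.9 CPM in the cKO libraries. Fcgr1, which encodes the CD64 used to remove macrophages, had 6.07, 11.7 and 4.95 CPM in the WT libraries and 5.39, 8.33 and 5.61 CPM in the cKO libraries. Of the 12 listed genes shared by conventional DCs, edgeR called 0, DESeq2 called 3 higher, and 4 were higher and 0 lower at an unadjusted p under 0.05. Their summed level was 5850 to 6210 CPM in WT and 6579 to 10348 CPM in cKO libraries, without overlap. Neither H2-Ab1 (log2 fold change 0.32 ± 0.29) nor Fcgr1 (-0.21 ± 0.62) was called.

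Markers of other cell types were also found, at levels that varied between libraries of one genotype. Summed over 12 listed genes of stroma and endothelium, the level was 1898, 5170 and 3521 CPM in the WT libraries and 1745, 3346 and 465 CPM in the cKO libraries, so that cKO replicate 3 was the lowest. The 15 listed T cell and ILC genes summed to 138, 331 and 122 CPM in WT and 328, 188 and 100 CPM in cKO libraries. Of these genes edgeR called 0 of the 12 and 0 of the 15, with 0 higher and 1 and 2 lower at an unadjusted p under 0.05, and DESeq2 called 0 and 1. The 14 epithelial genes tested summed to 460, 367 and 364 CPM in WT and 132, 170 and 246 CPM in cKO libraries with no overlap between the groups. Among them Cdh1, the adhesion molecule E-cadherin, had 224, 116 and 124 CPM in the WT libraries and 33, 22.6 and 46.9 CPM in the cKO libraries. Fabp1 and Apoa1, which mark absorptive enterocytes, stayed at or under 1.67 CPM in all 6. No epithelial gene was called by edgeR, although 5 of the 14 were lower at an unadjusted p under 0.05, and DESeq2 called 3 lower. The sums of the B cell list and of the 5 mast cell and eosinophil genes tested did not overlap either and were higher in cKO libraries. The latter lay at 8.81 to 38.3 CPM in WT and 45.3 to 58.3 CPM in cKO libraries, with 0 genes called by edgeR, 2 higher at an unadjusted p under 0.05 and 1 called higher by DESeq2. In bulk samples, a smaller share of cells of a type and less RNA per cell cannot be told apart.

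**Figure D1:**
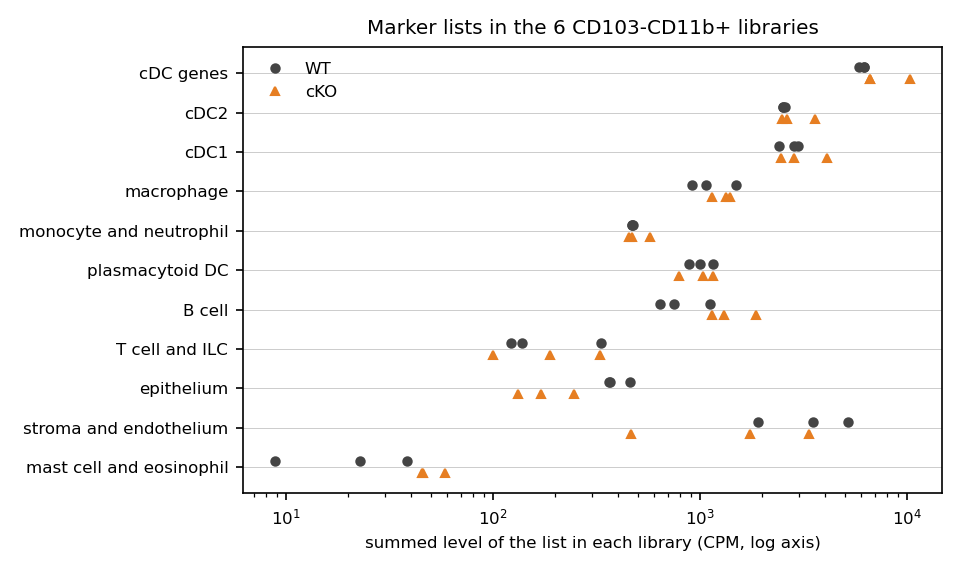
Summed level of 11 marker lists in each of the 6 CD103-CD11b+ libraries, with circles for WT and triangles for cKO and a log axis in CPM. The list of shared cDC genes lay at 5850 to 6210 CPM in WT and 6579 to 10348 CPM in cKO libraries, while the stroma and endothelium list ran from 465 to 5170 CPM and the epithelium list separated the groups, at 364 to 460 CPM in WT and 132 to 246 CPM in cKO libraries.

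Of 20580 genes that reached 5 counts in any of the 12 libraries, 228 were higher and 103 lower in cKO than in WT CD103-CD11b+ DCs. A gene was called where its FDR from edgeR's quasi-likelihood test over all genes was under 0.05 and its fold change exceeded 1.3. Calls thus made up 1.11% of tested genes in the upward direction, 0.500% in the downward direction and 1.61% in both together. DESeq2, an alternative tool, called 3.20% higher and 2.32% lower, and these shares are the background for its counts in the gene lists. For all 331 called genes the 3 cKO values lay on one side of the 3 WT values, which was also true of 20.1% of all tested genes. Genes called higher had a median log2 fold change of 1.3 and those called lower one of -1.03, against -0.06 over everything tested. Without adjustment, 8.29% of all tested genes were higher and 9.15% lower at a p under 0.05, which is the background for such counts in the gene lists below. More than a 2-fold difference was seen for 153 of the 228 genes called higher and 58 of the 103 called lower.

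These counts depended on the libraries in the fit. When one library was left out, the number of genes called higher ranged from 84 (without cKO replicate 2) to 307 (without WT replicate 1) and that of genes called lower from 25 to 210 for the same 2 libraries. Without WT replicate 2 they were 103 and 35, without WT replicate 3 they were 99 and 48, without cKO replicate 1 they were 140 and 33, and without cKO replicate 3 they were 147 and 72. Of the 331 genes, 69 called higher and 12 called lower kept their call in each of the 6 fits. A fit to the 6 libraries alone, which estimates the spread without the CD103+CD11b- samples, called 27 higher and 2 lower. Of the 85 called genes given with a fold change or group means in the following, 20 kept their call in that fit and 65 lost it. The 20 are Itgad, 4931431B13Rik, Cdh17, Clec12a, Adgrl3, Adgre4, Cd1d1, Oas3, Rab30, Slc7a11, Slc27a2, Slc4a8, Slc44a5, Flvcr1, Abca13, Ptger3, Dcstamp, Bank1, Rian and Palm.

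Called genes were found over the whole range of levels but were rare among the weakest genes. Under a mean of 1 CPM over the 6 libraries, 1 of 3123 genes was called higher and 0 were called lower. Between 1 and 5 CPM, 12 of 4446 genes were higher and 6 lower, and between 5 and 20 CPM, 37 of 4305 were higher and 15 lower. From 20 to 100 CPM, 98 of 5710 genes were higher and 60 lower, and above 100 CPM, 80 of 2996 were higher and 22 lower. The share called higher therefore went from 0.032% in the lowest class to 2.67% in the highest, which also follows the number of counts behind each gene. The single call under 1 CPM was Hc, the gene of complement component C5, which had 0, 0 and 0 CPM in the WT libraries and 0.673, 0.952 and 2.04 CPM in the cKO libraries. In the WT libraries 3 counts correspond to 0.587 to 1.0 CPM. Its call was lost whichever library was left out.

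**Figure D2:**
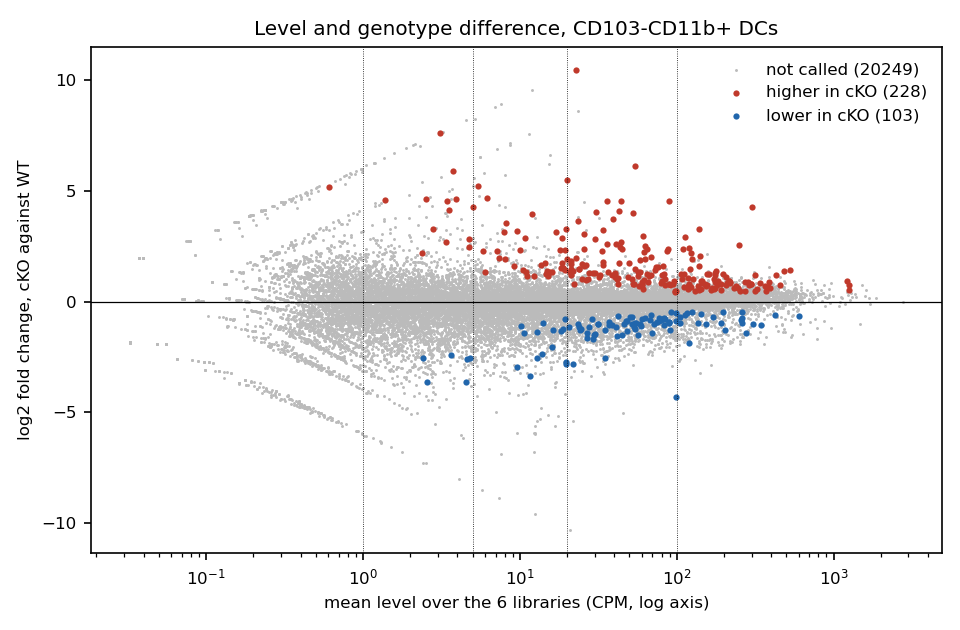
Log2 fold change of cKO against WT for the 20580 tested genes against their mean level over the 6 libraries in CPM on a log axis, with dotted lines at 1, 5, 20 and 100 CPM, which bound the level classes. Red points are the 228 genes called higher and blue points the 103 called lower, and most of both lie at 20 CPM or more.

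Cbfb itself and its partners were not called. Counts run over the whole Cbfb gene, of which only a part is removed, so its level of 184, 161 and 217 CPM in the WT libraries and 179.6, 169.6 and 273 CPM in the cKO libraries does not check the labels (log2 fold change 0.14 ± 0.19). Runx2 had 151, 129 and 152 CPM in the WT libraries and 300.2, 279 and 323 CPM in the cKO libraries, with groups that did not overlap (log2 fold change 1.06 ± 0.32 (SE), edgeR adjusted p = 0.121). Runx3 had 337, 226 and 312 CPM in the WT libraries and 420.5, 444 and 628 CPM in the cKO libraries, again without overlap (log2 fold change 0.77 ± 0.19 (SE), edgeR adjusted p = 0.0721). The values of Runx1 met at their edges, with 829 CPM as the highest WT and 828 CPM as the lowest cKO value (log2 fold change 0.57 ± 0.19 (SE), edgeR adjusted p = 0.151). None of the 10 genes listed for Runx/Cbfb complexes and the ETO and TLE partners passed the test, and 3 were higher and 2 lower at an unadjusted p under 0.05. DESeq2 called 2 of them higher and 1 lower.

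Among integrins, which join an alpha and a beta chain to bind matrix or other cells, the largest difference was that of Itgad, the alpha chain of a beta2 integrin of macrophages (ENSMUSG00000070369, chromosome 7, 128154376 to 128223816, plus strand). It had 9.2, 5.33 and 7.27 CPM in the WT libraries and 157, 172 and 187 CPM in the cKO libraries. The lowest cKO value was thus far above the highest WT value (log2 fold change 4.54 ± 0.27 (SE), edgeR adjusted p = 7.9e-05). The call was kept in the fit to the 6 libraries alone, with an edgeR adjusted p of 0.00382. In CD103+CD11b- DCs Itgad had 22.6, 19 and 12.9 CPM in WT and 45.5, 56.6 and 35.2 CPM in cKO libraries, and the rise was larger in CD103-CD11b+ DCs (difference of log2 fold changes 3.19 ± 0.35 (SE), edgeR adjusted p = 0.00685). The gene models 4931431B13Rik and Gm39091 overlap Itgad and were called higher too. Since reads were counted without regard to strand, the reads of 4931431B13Rik, which rose from a mean of 1.47 to 106 CPM, cannot be told apart from those of Itgad. Where a pair of levels is given for a gene, here and further on, it is the WT mean and the cKO mean of 3 libraries.

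Itgae, which encodes the CD103 chain, was lower in cKO cells although both groups had been sorted as CD103- (ENSMUSG00000005947, chromosome 11, 73090583 to 73147446, plus strand). It had 281, 138 and 150.1 CPM in the WT libraries and 81.5, 39.3 and 30.6 CPM in the cKO libraries, so that the groups did not overlap (log2 fold change -1.89 ± 0.36 (SE), edgeR adjusted p = 0.0301). CD103 was a gate of the sort. This call was lost without WT replicate 1, WT replicate 3, cKO replicate 2 or cKO replicate 3. Itga5, the fibronectin receptor chain, had 166, 202 and 248 CPM in the WT libraries and 94.1, 119.7 and 93.3 CPM in the cKO libraries (log2 fold change -1.0 ± 0.15 (SE), edgeR adjusted p = 0.0114). Its call held with each library left out. Itgam, which encodes CD11b, had 77.9, 104 and 89.6 CPM in the WT libraries and 122, 147 and 222 CPM in the cKO libraries and was not called (log2 fold change 0.85 ± 0.24 (SE), edgeR adjusted p = 0.105). Of the 30 integrin genes tested, edgeR called 1 higher and 2 lower and DESeq2 called 3 higher and 4 lower. Their median was -0.52 on the log2 scale, and 4 were higher and 9 lower at an unadjusted p under 0.05.

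Among adhesion and tight junction genes, some were called higher although the list as a whole had a negative median. Cdh17, a cadherin best known from intestinal epithelium (ENSMUSG00000028217, chromosome 4, 11758147 to 11817895, plus strand), had 6.85, 3.0 and 4.07 CPM in the WT libraries and 104, 90.9 and 46.9 CPM in the cKO libraries. Mpzl2, an adhesion molecule of the immunoglobulin superfamily, had 2.74, 0.666 and 2.04 CPM in the WT libraries and 15.5, 18.6 and 18.4 CPM in the cKO libraries. Both rose (log2 fold change 4.08 ± 0.49 (SE), edgeR adjusted p = 0.00305 for Cdh17, log2 fold change 3.18 ± 0.38 (SE), edgeR adjusted p = 0.00305 for Mpzl2), and both kept the call with each library left out. Claudin 1 (Cldn1) fell, with 10.2, 7.33 and 6.11 CPM in the WT libraries and 1.57, 0.476 and 2.04 CPM in the cKO libraries (log2 fold change -2.62 ± 0.45 (SE), edgeR adjusted p = 0.0175). It lost its call without cKO replicate 1 or cKO replicate 2. Of the 29 genes of this list, edgeR called 2 higher and 1 lower, and DESeq2 called 2 higher and 7 lower. The median was -0.77, and 2 were higher and 11 lower at an unadjusted p under 0.05. The summed epithelial markers given above were lower in cKO libraries as well, while Cdh17 was higher, and the part of epithelial RNA in these values was not tested.

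**Figure D3:**
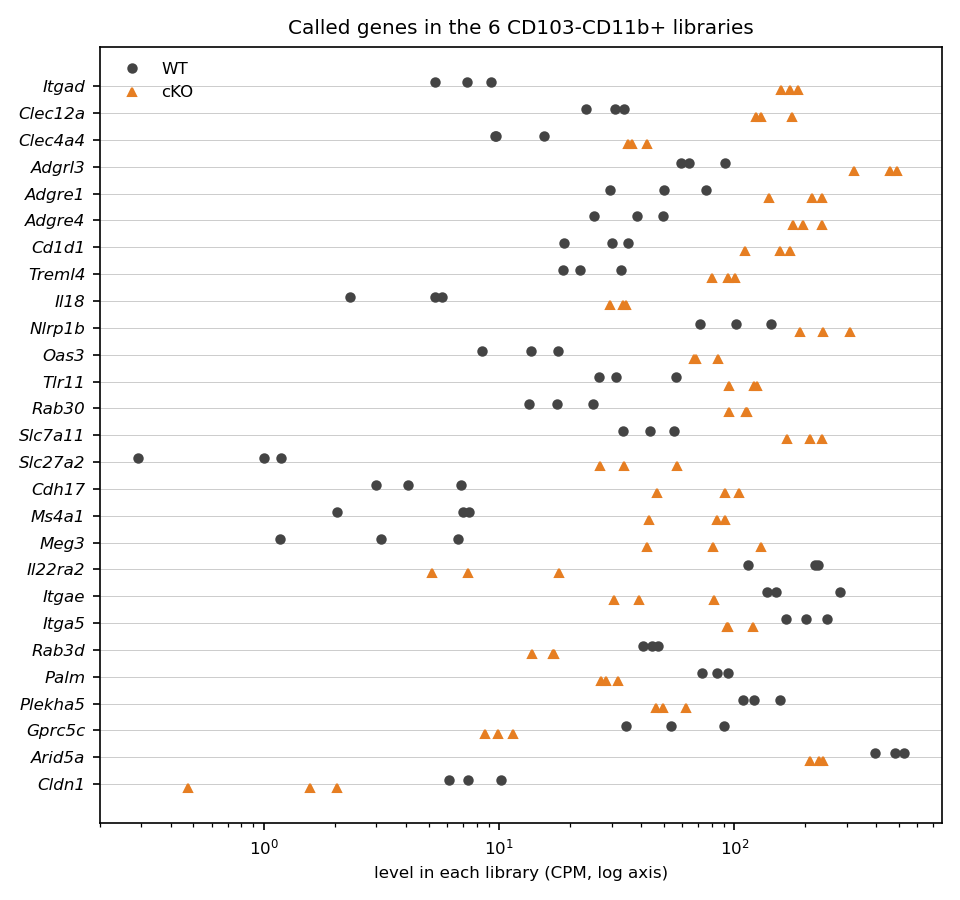
Level of 27 called genes in each of the 6 libraries in CPM on a log axis, with circles for the 3 WT and triangles for the 3 cKO libraries. Levels run from Itgad with 5.33 to 9.2 against 157 to 187 CPM down to Cldn1 with 6.11 to 10.2 against 0.476 to 2.04 CPM. The groups do not overlap for any of these genes, as for all 331 called genes and for 20.1% of all tested genes.

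Several receptors of myeloid cells were called higher. Clec12a, an inhibitory C-type lectin that senses dying cells, had 34.1, 31 and 23.3 CPM in the WT libraries and 130.0, 176 and 123 CPM in the cKO libraries (log2 fold change 2.28 ± 0.18 (SE), edgeR adjusted p = 0.000488). Clec4a4, which encodes the DC receptor DCIR2, had 15.5, 9.66 and 9.6 CPM in the WT libraries and 36.8, 42.4 and 35.2 CPM in the cKO libraries (log2 fold change 1.71 ± 0.35 (SE), edgeR adjusted p = 0.0398). Its call was kept only in the fit without WT replicate 1. These were the only C-type lectins that edgeR called among 55 tested, while DESeq2 called 7 higher and 1 lower, and the median over the family was 0.01. Treml4, a receptor of the TREM family that binds late apoptotic cells, had 32.9, 18.7 and 22.1 CPM in the WT libraries and 80.6, 93.8 and 101 CPM in the cKO libraries (log2 fold change 1.89 ± 0.20 (SE), edgeR adjusted p = 0.00128). Csf3r, the receptor for the granulocyte growth factor G-CSF, had 42.3, 39.3 and 36.4 CPM in the WT libraries and 84.6, 134 and 101 CPM in the cKO libraries (log2 fold change 1.44 ± 0.29 (SE), edgeR adjusted p = 0.0353). Its call held in 1 of the 6 leave-one-out fits. The neutrophil genes S100a8 and S100a9 did not exceed 4.94 CPM in any of the 6 libraries.

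Of 22 genes of the adhesion GPCR family, whose long extracellular domains contact cells or matrix, 3 rose. Adgrl3, or latrophilin 3, had 59.5, 91 and 64.3 CPM in the WT libraries and 324, 492 and 457 CPM in the cKO libraries (log2 fold change 2.57 ± 0.22 (SE), edgeR adjusted p = 0.000613). Adgre4, a relative of F4/80, had 38.4, 49.6 and 25.3 CPM in the WT libraries and 178, 235 and 195 CPM in the cKO libraries (log2 fold change 2.42 ± 0.28 (SE), edgeR adjusted p = 0.00234). Adgre1, the gene of the macrophage antigen F4/80 itself, had 50.1, 76 and 29.7 CPM in the WT libraries and 139.9, 236 and 215 CPM in the cKO libraries (log2 fold change 1.93 ± 0.38 (SE), edgeR adjusted p = 0.0336). It lost its call without WT replicate 1, WT replicate 3, cKO replicate 2 or cKO replicate 3. Other macrophage markers were not called. The complement gene C1qa had 28.4, 37.6 and 14.8 CPM in the WT libraries and 25.4, 34.7 and 14.8 CPM in the cKO libraries. Mertk, a receptor for dying cells, had 22.7, 62.3 and 47.1 CPM in the WT libraries and 22.9, 52.1 and 5.1 CPM in the cKO libraries. Adgre1 was the only one that edgeR called of the 15 listed macrophage genes, and DESeq2 called 1 higher. On the log2 scale the adhesion GPCRs had a median of -0.68, and 4 were higher and 2 lower at an unadjusted p under 0.05.

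For antigen presentation, the gene with the smallest p was Cd1d1, which presents lipids to NKT cells (ENSMUSG00000028076, chromosome 3, 86995834 to 86999441, minus strand). It had 30.1, 35.3 and 18.9 CPM in the WT libraries and 111, 156 and 172 CPM in the cKO libraries (log2 fold change 2.38 ± 0.25 (SE), edgeR adjusted p = 0.0014) and was the only one that edgeR called of 22 genes of MHC class I and CD1, of which DESeq2 called 2 higher. H2-Eb2, a class II beta chain gene, had 11.2, 6.33 and 10.5 CPM in the WT libraries and 50.3, 29.5 and 29.1 CPM in the cKO libraries (log2 fold change 1.95 ± 0.33 (SE), edgeR adjusted p = 0.0172). Its call was lost without WT replicate 2, WT replicate 3 or cKO replicate 1. Btnl2, its neighbour on chromosome 17, was called higher as well, at 0.807 to 3.97 CPM, and kept its call in 3 of the 6 fits. EdgeR called none of the other 19 listed class II presentation genes, and DESeq2 called 3 of the 20 higher. Of 23 genes for costimulation and checkpoints 0 were called by edgeR, while 9 were higher and 0 lower at an unadjusted p under 0.05 and DESeq2 called 4 higher. The one nearest to a call was Pdcd1lg2 (PD-L2), with 11.6, 7.33 and 5.53 CPM in the WT libraries and 35.2, 47.6 and 33.1 CPM in the cKO libraries (log2 fold change 2.23 ± 0.50 (SE), edgeR adjusted p = 0.0521). It passed the FDR in 6 of 8 other settings, with an edgeR adjusted p of 0.00881 where the model held a term for replicate number. In the 6 libraries alone that p was 0.0789, and Pdcd1lg2 was called in 1 of the 6 leave-one-out fits.

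To show sequence around the starts of such genes, the core letters of the Runx site, TGTGGT and TGCGGT, were searched on both strands of the RefSeq promoters in build GRCm38.p6. Each promoter spans 250 bases before and 50 bases after a start. The table held a promoter for 148 of the 228 genes called higher, 81 of the 103 called lower and 12577 of the 20580 tested. Either word occurred in 17.0% of the 182 promoters of genes called higher, in 16.1% of the 112 of genes called lower and in 21.4% of the 15987 of all tested genes. TGTGGT alone occurred in 10.4%, 8.93% and 13.5%, and TGCGGT in 7.14%, 7.14% and 8.81%. A match describes the letters only, and no match says only that they are not in this window. Shown in 5′ to 3′ direction along the gene are 4 genes called higher that hold a match and Rab3d, called lower, which holds none. They were chosen after these results were known, and capitals mark TGTGGT or its reverse complement ACCACA. The windows are chr6:129349994-129350293, plus strand for Clec12a, chr9:50554450-50554749, plus strand for Il18, chr2:126552774-126553073, plus strand for Slc27a2, chr17:55749734-55750033, plus strand for Adgre4 and chr9:21918134-21918433, minus strand for Rab3d.
Clec12a: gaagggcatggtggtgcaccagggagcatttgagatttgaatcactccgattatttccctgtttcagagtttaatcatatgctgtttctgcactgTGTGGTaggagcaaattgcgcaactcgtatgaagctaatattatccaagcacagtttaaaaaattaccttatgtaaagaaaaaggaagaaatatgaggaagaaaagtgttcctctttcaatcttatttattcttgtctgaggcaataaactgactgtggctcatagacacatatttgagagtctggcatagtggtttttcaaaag
Il18: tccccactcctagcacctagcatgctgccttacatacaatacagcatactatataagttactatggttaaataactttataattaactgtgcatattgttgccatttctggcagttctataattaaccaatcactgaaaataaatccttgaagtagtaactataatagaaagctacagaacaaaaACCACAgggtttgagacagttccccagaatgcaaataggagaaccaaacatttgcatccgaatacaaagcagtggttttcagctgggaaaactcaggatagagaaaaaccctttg
Slc27a2: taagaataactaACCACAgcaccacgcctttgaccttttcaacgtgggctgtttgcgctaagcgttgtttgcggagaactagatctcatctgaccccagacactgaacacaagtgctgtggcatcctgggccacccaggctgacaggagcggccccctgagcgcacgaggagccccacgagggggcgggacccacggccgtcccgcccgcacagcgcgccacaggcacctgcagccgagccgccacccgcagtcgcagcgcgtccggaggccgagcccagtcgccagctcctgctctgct
Adgre4: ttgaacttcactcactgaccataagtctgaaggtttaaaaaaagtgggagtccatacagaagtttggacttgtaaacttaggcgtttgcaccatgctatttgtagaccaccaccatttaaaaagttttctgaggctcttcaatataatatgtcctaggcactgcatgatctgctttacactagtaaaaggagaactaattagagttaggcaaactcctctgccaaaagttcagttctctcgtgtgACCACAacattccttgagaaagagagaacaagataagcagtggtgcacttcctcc
Rab3d: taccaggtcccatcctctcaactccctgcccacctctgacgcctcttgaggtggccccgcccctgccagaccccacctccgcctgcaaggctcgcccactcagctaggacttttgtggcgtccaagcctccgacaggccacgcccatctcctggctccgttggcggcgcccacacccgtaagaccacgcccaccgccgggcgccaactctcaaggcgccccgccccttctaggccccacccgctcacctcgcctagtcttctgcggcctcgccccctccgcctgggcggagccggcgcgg

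The match begins 155 bases before the start of the RefSeq promoter in Clec12a, 65 in Il18, 238 in Slc27a2 and 5 in Adgre4. These starts can differ from those of the gene positions. The annotated gene begins at 129342691 for Clec12a and at 126552407 for Slc27a2, so both windows lie inside the gene. These 4 genes rose by 2.28 ± 0.18, 2.85 ± 0.39, 5.48 ± 0.53 and 2.42 ± 0.28 on the log2 scale (SE).

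Of the cytokine genes, Il18 rose and Il22ra2 fell. Il18 encodes a cytokine of the IL-1 family that is made as a precursor and cleaved by inflammasome caspases, and it had 5.68, 5.33 and 2.33 CPM in the WT libraries and 29.4, 34.5 and 33.6 CPM in the cKO libraries (log2 fold change 2.85 ± 0.39 (SE), edgeR adjusted p = 0.00656). No other of the 14 IL-1 family and receptor genes was called by edgeR, and DESeq2 called 1 of the 14 higher. Il1b, a further member, had 297, 312 and 403 CPM in the WT libraries and 228, 303 and 530.3 CPM in the cKO libraries. Tex12, which was called higher as well, overlaps Il18, and reads there cannot be told apart since strand was not used. Il22ra2 encodes the soluble IL-22 binding protein, which blocks IL-22, and it had 220.2, 114 and 227 CPM in the WT libraries and 5.16, 7.38 and 17.9 CPM in the cKO libraries (log2 fold change -4.31 ± 0.51 (SE), edgeR adjusted p = 0.00298). Ebi3, the subunit shared by IL-27 and IL-35, had 19.6, 14.7 and 19.2 CPM in the WT libraries and 31.4, 36.4 and 42.8 CPM in the cKO libraries (log2 fold change 1.04 ± 0.17 (SE), edgeR adjusted p = 0.0127). All 3 kept their call with each library left out and lost it in the fit to the 6 libraries alone, where the edgeR adjusted p was 0.0542 for Il18 and Il22ra2 and 0.167 for Ebi3.

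Inflammasome genes were represented by Nlrp1b, a sensor that activates caspase-1. It had 144, 101 and 71.3 CPM in the WT libraries and 189, 238 and 310.5 CPM in the cKO libraries (log2 fold change 1.22 ± 0.24 (SE), edgeR adjusted p = 0.0337). Its call was lost without WT replicate 2, WT replicate 3, cKO replicate 2 or cKO replicate 3. The adjacent pseudogene Nlrp1c-ps was also called higher (log2 fold change 1.59 ± 0.22 (SE), edgeR adjusted p = 0.00614). Reads of such near copies can be split between them. The median of the 16 inflammasome genes was 0.46, with 6 of them higher and 0 lower at an unadjusted p under 0.05, while Pycard and Casp1 had -0.24 ± 0.17 and 0.56 ± 0.26.

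Genes of the interferon response were called in the upward direction only. Of 39 tested, edgeR called 6 higher and 0 lower and DESeq2 11 higher and 0 lower. The median log2 fold change was 0.64, and 19 were higher and 0 lower at an unadjusted p under 0.05, against 8.29% and 9.15% of all genes. Oas3 and Oas2 are neighbours on chromosome 5 whose products sense double-stranded RNA. Oas3 had 17.8, 13.7 and 8.44 CPM in the WT libraries and 68.9, 85.4 and 67.3 CPM in the cKO libraries. Oas2 had 36.2, 22 and 27.3 CPM in the WT libraries and 72.5, 90.7 and 77 CPM in the cKO libraries. The groups were apart for both (log2 fold change 2.46 ± 0.30 (SE), edgeR adjusted p = 0.00329 for Oas3, log2 fold change 1.48 ± 0.25 (SE), edgeR adjusted p = 0.0176 for Oas2). Zbp1, a sensor of Z-form nucleic acid, went from 38.1 to 91.5 CPM, Isg15, a ubiquitin-like modifier, from 8.79 to 22.6 CPM, and Oasl1 from 7.65 to 17.1 CPM.

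Other interferon-stimulated genes were not called. Irf7 had a log2 fold change of -0.10 ± 0.20, Irf9 of -0.05 ± 0.09 and Bst2 of -0.35 ± 0.22. Oas3 kept its call with each library left out, Oas2 lost its call in 3 of the 6 fits, Zbp1 and Isg15 in 5, and Oasl1 in 6. The related IFI200 gene Ifi209 was called higher at 31.5 to 67 CPM and kept its call in 2 of the 6 fits. For comparison, Oas3 changed by 1.58 ± 0.32 in CD103+CD11b- DCs.

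Of 31 pattern recognition genes, edgeR called 3 higher and 0 lower, against 1.11% and 0.500% of all genes. DESeq2 called 5 higher and 1 lower, against 3.20% and 2.32%, and 11 were higher and 2 lower at an unadjusted p under 0.05. Tlr11, which binds protozoan profilin, had 56.4, 26.6 and 31.4 CPM in the WT libraries and 94.5, 125 and 121 CPM in the cKO libraries (log2 fold change 1.56 ± 0.24 (SE), edgeR adjusted p = 0.011). Tlr13, a sensor of bacterial ribosomal RNA, had 90.4, 59 and 50.3 CPM in the WT libraries and 111, 128 and 141 CPM in the cKO libraries (log2 fold change 0.92 ± 0.20 (SE), edgeR adjusted p = 0.0452). Nod2, the sensor of muramyl dipeptide, had 66.6, 59.3 and 82.9 CPM in the WT libraries and 99.7, 121 and 138 CPM in the cKO libraries (log2 fold change 0.78 ± 0.17 (SE), edgeR adjusted p = 0.0493). The call of Tlr11 was kept with each library left out, that of Tlr13 only without WT replicate 1, and that of Nod2 in none of the 6 fits. The adaptor Myd88 was not called, with a log2 fold change of -0.20 ± 0.09. Tank, an adaptor of TBK1 and NF-kB signalling, had 103, 99 and 148 CPM in the WT libraries and 226, 258 and 356 CPM in the cKO libraries (log2 fold change 1.26 ± 0.20 (SE), edgeR adjusted p = 0.0115).

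**Figure D4:**
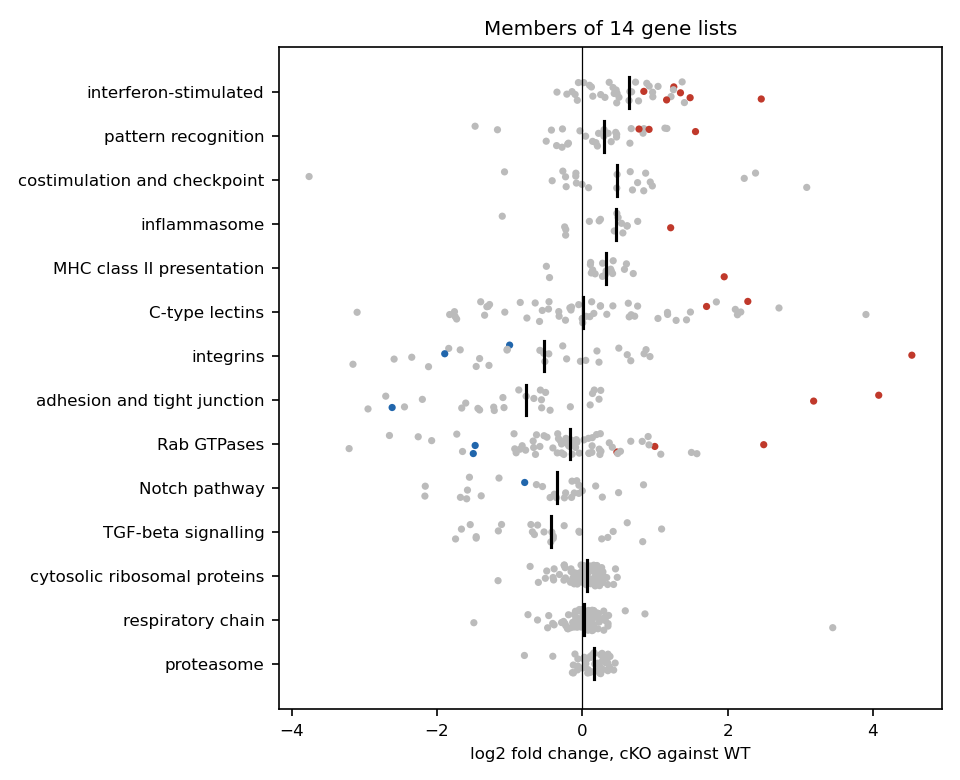
Log2 fold change of cKO against WT for each tested member of 14 gene lists, with vertical bars at the medians, red for called higher and blue for called lower. The interferon-stimulated list has its median at 0.64 and 6 red points, whereas cytosolic ribosomal proteins, the respiratory chain and the proteasome have medians of 0.07, 0.02 and 0.16 and no called member.

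Small GTPases of the Rab family, which direct vesicle traffic, were called in both directions. Rab30, which acts at the Golgi, had 25.1, 17.7 and 13.4 CPM in the WT libraries and 112, 113 and 94.3 CPM in the cKO libraries (log2 fold change 2.5 ± 0.21 (SE), edgeR adjusted p = 0.00057). Rab32, of lysosome-related organelles, went from 55.6 to 112 CPM, and Rab14, of early and recycling endosomes, from 228 to 316 CPM. Rab3d, which serves regulated secretion, had 47.2, 40.6 and 44.5 CPM in the WT libraries and 17.1, 13.8 and 16.8 CPM in the cKO libraries (log2 fold change -1.48 ± 0.15 (SE), edgeR adjusted p = 0.00128). Rab3il1, an exchange factor for Rab3 proteins that the name pattern picked up, fell from 44 to 15.4 CPM. The calls of Rab30 and Rab3d were kept with each library left out, those of Rab32 and Rab3il1 in 3 of the 6 fits, and that of Rab14 in 0. Of 68 genes in the list edgeR called 3 higher and 2 lower, against 1.11% and 0.500% of all genes, and DESeq2 6 higher and 4 lower, against 3.20% and 2.32%. The median was -0.16, and 9 were higher and 12 lower at an unadjusted p under 0.05.

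Genes named Arhgap or Arhgef, whose products switch small GTPases of the actin cytoskeleton off or on, gave 3 higher and 2 lower calls by edgeR among 58 and 6 higher and 5 lower by DESeq2. Their median was -0.32, and 9 were higher and 13 lower at an unadjusted p under 0.05. Arhgap15 had 172, 144 and 148 CPM in the WT libraries and 255, 280.5 and 312 CPM in the cKO libraries (log2 fold change 0.87 ± 0.11 (SE), edgeR adjusted p = 0.00562). Arhgap26 had 125, 161 and 131 CPM in the WT libraries and 65.1, 77.1 and 68.8 CPM in the cKO libraries (log2 fold change -0.98 ± 0.15 (SE), edgeR adjusted p = 0.00986). Arhgap6 and Arhgap4 were called higher at 41.8 to 82.6 CPM and 86.8 to 152 CPM, and Arhgef18 was called lower at 76 to 31.9 CPM. With one library left out, the calls of Arhgap15 and Arhgap26 held in all 6 fits, that of Arhgef18 in 2, that of Arhgap4 in 1 and that of Arhgap6 in 0. Tns3, a tensin that links integrins to actin, had 267, 239 and 276 CPM in the WT libraries and 548, 569.9 and 659 CPM in the cKO libraries (log2 fold change 1.18 ± 0.11 (SE), edgeR adjusted p = 0.000788). Dbn1, the actin-binding protein drebrin, had 58.3, 52.3 and 58.5 CPM in the WT libraries and 27.4, 18.8 and 30.1 CPM in the cKO libraries (log2 fold change -1.16 ± 0.17 (SE), edgeR adjusted p = 0.00964).

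Among 233 Slc membrane transporter genes outside the Slc25 group, edgeR called 8 higher and 3 lower, against 1.11% and 0.500% of all genes. DESeq2 called 16 higher and 14 lower, against 3.20% and 2.32%. At an unadjusted p under 0.05, 23 were higher and 40 lower, and the median was -0.19. Slc7a11, the cystine and glutamate exchanger, had 33.7, 43.6 and 55.3 CPM in the WT libraries and 168, 209 and 236 CPM in the cKO libraries (log2 fold change 2.21 ± 0.30 (SE), edgeR adjusted p = 0.00581). Slc27a2, which takes up and activates very long chain fatty acids (ENSMUSG00000027359, chromosome 2, 126552407 to 126588243, plus strand), had 1.18, 1.0 and 0.291 CPM in the WT libraries and 26.7, 34 and 57.1 CPM in the cKO libraries (log2 fold change 5.48 ± 0.53 (SE), edgeR adjusted p = 0.000943). Its WT level was close to the floor of 0.587 to 1.0 CPM that 3 counts give in these libraries. Slc4a8, a sodium bicarbonate carrier, had 21.5, 33 and 23.9 CPM in the WT libraries and 265, 308 and 182 CPM in the cKO libraries (log2 fold change 3.28 ± 0.46 (SE), edgeR adjusted p = 0.0066). Slc44a5, of the choline transporter-like family, had 8.61, 5.0 and 5.53 CPM in the WT libraries and 42, 74.7 and 66.3 CPM in the cKO libraries (log2 fold change 3.23 ± 0.42 (SE), edgeR adjusted p = 0.00536). These 4 calls held with each library left out and in the fit to the 6 libraries alone.

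The other Slc genes called higher were Slc4a7 (296 to 471 CPM), Slc9a7 (44.5 to 75.5 CPM), Slc37a2 (37.3 to 109 CPM) and Slc6a20a (2.94 to 11.7 CPM). Their calls held in 2, 2, 2 and 1 of the 6 leave-one-out fits. Those called lower were the heme transporter Slc48a1 (72.8 to 36.6 CPM), the carnitine transporter Slc22a21 (15.4 to 5.75 CPM) and the riboflavin transporter Slc52a3 (49.8 to 20.2 CPM), with calls that held in 5, 4 and 4 of these fits. The mitochondrial carrier Slc25a25 was lower (128 to 70.4 CPM) and kept its call in 1 of them. Flvcr1, described as a heme exporter, had 99.4, 84.3 and 113 CPM in the WT libraries and 235, 265 and 265 CPM in the cKO libraries (log2 fold change 1.37 ± 0.14 (SE), edgeR adjusted p = 0.00128). Abca13 was the only ABC transporter that edgeR called among 41, of which DESeq2 called 2 higher and 1 lower. It had 8.61, 6.33 and 3.49 CPM in the WT libraries and 132, 96.1 and 67.8 CPM in the cKO libraries (log2 fold change 3.98 ± 0.36 (SE), edgeR adjusted p = 0.000788).

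Genes of lipid mediators and retinoids were called in single cases. Ptger3, the prostaglandin E2 receptor EP3, had 3.92, 4.33 and 2.04 CPM in the WT libraries and 51, 66.9 and 56.1 CPM in the cKO libraries (log2 fold change 4.07 ± 0.52 (SE), edgeR adjusted p = 0.00484) and was the only one that edgeR called of 28 prostaglandin and leukotriene genes, of which DESeq2 called 5 higher and 1 lower. Dhrs9, a dehydrogenase that can oxidise retinol, had 7.05, 5.33 and 6.4 CPM in the WT libraries and 24.9, 30.9 and 41.8 CPM in the cKO libraries (log2 fold change 2.35 ± 0.24 (SE), edgeR adjusted p = 0.00119) and was the only one that edgeR called of 18 retinoid genes, of which DESeq2 called 1 higher and 2 lower and whose median was -0.46. Dcstamp, needed for fusion of osteoclasts and also made by DCs, had 14.1, 13 and 16.3 CPM in the WT libraries and 58.8, 80.9 and 85.2 CPM in the cKO libraries (log2 fold change 2.37 ± 0.23 (SE), edgeR adjusted p = 0.000943). Each of these 3 kept its call with each library left out.

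Several genes known from B cells were higher in cKO libraries. Ms4a1, which encodes CD20, had 7.44, 7.0 and 2.04 CPM in the WT libraries and 91.2, 84.5 and 43.3 CPM in the cKO libraries (log2 fold change 3.72 ± 0.47 (SE), edgeR adjusted p = 0.00455). Bank1, a scaffold of B cell receptor signalling, had 24.7, 41.6 and 14.2 CPM in the WT libraries and 213, 214 and 174 CPM in the cKO libraries (log2 fold change 2.91 ± 0.32 (SE), edgeR adjusted p = 0.00184). Cd22, an inhibitory sialic acid receptor, had 26.2, 34.3 and 22.4 CPM in the WT libraries and 136, 116 and 79 CPM in the cKO libraries (log2 fold change 2.0 ± 0.26 (SE), edgeR adjusted p = 0.00521). Tnfrsf13c, the BAFF receptor, had 22.5, 9.66 and 14 CPM in the WT libraries and 63.1, 61.6 and 33.1 CPM in the cKO libraries (log2 fold change 1.77 ± 0.36 (SE), edgeR adjusted p = 0.0381). It lost its call in 4 of the 6 leave-one-out fits, while the other 3 lost it in none.

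Over the whole list of 16 B cell genes, edgeR called 3 higher and 0 lower, DESeq2 called 6 higher, and 7 were higher and 0 lower at an unadjusted p under 0.05. The transcription factor Pax5, which defines B cells and was chosen after its values were seen, had 6.46, 19.3 and 0 CPM in the WT libraries and 60.8, 14 and 0 CPM in the cKO libraries. It was at 0 in cKO replicate 3 and highest in cKO replicate 1. The sum of the 16 B cell genes was 643, 1112 and 746 CPM in WT and 1857, 1135 and 1297 CPM in cKO libraries, without overlap, and the median log2 fold change was 1.36. The part of B cell RNA in the values of these genes was not tested. Ighv5-16 was the only one that edgeR called of 163 immunoglobulin genes, of which DESeq2 called 5 higher. It had 0, 0 and 0 CPM in the WT libraries and 86.2, 0.714 and 49.5 CPM in the cKO libraries, so that 1 cKO library was near 0 and the call was lost in 5 of the 6 leave-one-out fits.

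Noncoding and predicted genes were among those called in both directions. Of the 5545 tested models named Gm or Rik, 47 were higher and 6 lower, or 0.956% against 1.61% over all genes. By annotation, 53 of the 228 genes called higher and 4 of the 103 called lower were not protein coding. The share called higher was 0.902% of the 5876 genes that are not protein coding and 1.19% of the 14704 that are. Of those 53, 13 (24.5%) overlapped another gene called higher, and 25 (47.2%) lay within 100000 bases of one. Among the genes not called that are not protein coding and have a position, 172 of 5798 (2.97%) overlapped any called gene and 451 (7.78%) lay within 100000 bases of one. Examples are Gm37551 and Gm38263 within Dpp10, Gm43594 with Adgrl3, Gm2065 with Hmgn3 and Gm45615 with Rras2. Counts of such overlapping models cannot be told apart from those of the gene they overlap. Gm37551, Gm38263 and Gm43594 lie on the same strand as that gene. Gm2065 and Gm45615 lie on the opposite strand, and strand was not used in counting.

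One group of noncoding genes lay together without overlap. Meg3, Rian, Mirg, B830012L14Rik and the coding gene Rtl1 belong to the imprinted Dlk1-Dio3 region on chromosome 12, in which maternal RNAs and paternal coding genes are made from different copies. Of 17 tested genes listed for this region and for small nucleolar RNA hosts, edgeR and DESeq2 each called 4 higher and 0 lower. B830012L14Rik was not in that list, whose median was 0.03. In it, 5 were higher and 1 lower at an unadjusted p under 0.05. Meg3 had 3.13, 6.66 and 1.16 CPM in the WT libraries and 42.4, 129 and 81.1 CPM in the cKO libraries (log2 fold change 4.55 ± 0.67 (SE), edgeR adjusted p = 0.00942). Rian had 1.57, 3.0 and 4.36 CPM in the WT libraries and 35.5, 93.5 and 79 CPM in the cKO libraries (log2 fold change 4.56 ± 0.48 (SE), edgeR adjusted p = 0.00128). Mirg went from 0.305 to 7.57 CPM, Rtl1 from 0.242 to 10.5 CPM and B830012L14Rik from 0.111 to 7.36 CPM, with WT values at or under the floor of 3 counts. All 5 were called higher, and Meg3 and Rian kept the call with each library left out, against 3 of the 6 fits for Rtl1, 1 for B830012L14Rik and 0 for Mirg. In CD103+CD11b- DCs their log2 fold changes were 4.34 ± 0.78 and 2.93 ± 0.50 (SE), and the difference between subsets was not called for either (0.21 ± 1.43 (SE), edgeR adjusted p = 1 for Meg3, 1.63 ± 0.70 (SE), edgeR adjusted p = 0.414 for Rian).

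Genes called lower were fewer and of diverse function. Palm, or paralemmin, a membrane-bound protein of cell processes, had 84.4, 93.6 and 72.4 CPM in the WT libraries and 32.1, 28.3 and 27 CPM in the cKO libraries (log2 fold change -1.51 ± 0.14 (SE), edgeR adjusted p = 0.00085). Plekha5, a pleckstrin homology domain protein, had 156, 122 and 109 CPM in the WT libraries and 62.4, 46.4 and 49.5 CPM in the cKO libraries (log2 fold change -1.29 ± 0.16 (SE), edgeR adjusted p = 0.00357). Ppp1r3d, which targets protein phosphatase 1 to glycogen, had 26.8, 20.3 and 31.1 CPM in the WT libraries and 6.96, 6.42 and 5.1 CPM in the cKO libraries (log2 fold change -2.06 ± 0.27 (SE), edgeR adjusted p = 0.00521). Gprc5c, an orphan receptor, had 90.6, 53.6 and 34.6 CPM in the WT libraries and 9.88, 11.4 and 8.67 CPM in the cKO libraries (log2 fold change -2.56 ± 0.38 (SE), edgeR adjusted p = 0.00988). Pianp, a ligand of the PILR alpha receptor, had 37.2, 15.3 and 16.6 CPM in the WT libraries and 4.27, 3.81 and 5.61 CPM in the cKO libraries (log2 fold change -2.39 ± 0.33 (SE), edgeR adjusted p = 0.00632). All 5 kept their call with each library left out.

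The largest decreases apart from Il22ra2 were those of Ndrg4, Pi16, Bst1, Adra2a, Sdk1, Rasd2 and Trpv4, with log2 fold changes of -3.65, -3.62, -3.35, -2.95, -2.85, -2.82 and -2.75 (SE from 0.51 to 0.73). Mean levels went from 8.48 to 0.632 CPM for Ndrg4, from 21.1 to 2.05 CPM for Bst1 and from 38.4 to 5.53 CPM for Rasd2. With one library left out, the call held in 5 of the 6 fits for Ndrg4, 4 for Sdk1, 3 for Rasd2, 1 each for Bst1, Adra2a and Trpv4, and 0 for Pi16. At higher levels, Arid5a, an RNA-binding protein that stabilises inflammatory transcripts, had 398, 482 and 525 CPM in the WT libraries and 238, 210.1 and 229.5 CPM in the cKO libraries (log2 fold change -1.05 ± 0.16 (SE), edgeR adjusted p = 0.00964). Tpcn1, a cation channel of endosomes and lysosomes, had 393, 313 and 331 CPM in the WT libraries and 164, 149 and 210.1 CPM in the cKO libraries (log2 fold change -0.99 ± 0.15 (SE), edgeR adjusted p = 0.0107). The call of Arid5a was lost without cKO replicate 2, and that of Tpcn1 without cKO replicate 1 or cKO replicate 2. Maml3, a coactivator of Notch, was the only one called of 27 Notch pathway genes by edgeR (101 to 58.6 CPM, log2 fold change -0.79 ± 0.15 (SE), edgeR adjusted p = 0.025), and DESeq2 called 1 higher and 3 lower. Its call held in 2 of the 6 leave-one-out fits. The median of that list was -0.36, with 7 of the 27 genes lower and 1 higher at an unadjusted p under 0.05, against 9.15% and 8.29% of all genes. Notch1, Notch4 and Dll4 are also made by endothelium, whose markers were lowest in cKO replicate 3, and the part of such cells in these values was not tested.

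Of the TGF-beta genes, 0 of 25 were called by edgeR, with 3 higher and 3 lower at an unadjusted p under 0.05, and DESeq2 called 2 higher and 2 lower. Tgfbr1, the type I receptor, had 179.9, 182 and 134 CPM in the WT libraries and 369.7, 374 and 311 CPM in the cKO libraries without overlap (log2 fold change 1.09 ± 0.25 (SE), edgeR adjusted p = 0.0577). It passed the FDR in 6 of 8 other settings, with an edgeR adjusted p of 0.00404 where the model held a term for replicate number. In the 6 libraries alone that p was 0.0819, and Tgfbr1 was called in 0 of the 6 leave-one-out fits. Tgfbr2 had 287, 488 and 444 CPM in the WT libraries and 274, 316 and 179 CPM in the cKO libraries (log2 fold change -0.66 ± 0.23 (SE), edgeR adjusted p = 0.173). Large families of general cell function held no gene called by edgeR. These were 82 cytosolic and 77 mitochondrial ribosomal protein genes, 89 of the respiratory chain, 47 of the proteasome, 65 translation factors, 69 heat shock proteins, 40 splicing factors, 41 genes of cell cycle and DNA replication and 352 Zfp zinc finger genes. Their medians lay between -0.06 and 0.16, and at an unadjusted p under 0.05 they held between 1 and 16 higher and between 0 and 21 lower genes. DESeq2 called 5 Zfp genes higher and 1 lower, 1 respiratory chain gene higher, 1 gene of the cell cycle list lower and 0 in the other 6. Over all tested genes the share called was 1.61%, so a count of 0 in the smaller of these lists does not set them apart.

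The effects were compared with those in CD103+CD11b- DCs by the difference of the 2 log2 fold changes. Subsets of one genotype may share mice, and the fit takes all samples as separate. The difference passed an FDR of 0.05 for 134 genes, 0.651% of those tested, of which 49 were among the genes called higher and 11 among those called lower here. In both subsets 14 genes were called higher and 13 lower, and 7 were higher here but lower in CD103+CD11b- DCs. Clec4a4 had 6.5, 4.8 and 6.31 CPM in WT and 0, 0.488 and 0.391 CPM in cKO CD103+CD11b- DCs, so that it fell there and rose here (difference 5.98 ± 0.64 (SE), edgeR adjusted p = 0.00685). Slc7a11 had 8.89, 19.7 and 16.8 CPM in WT and 3.55, 6.83 and 3.91 CPM in cKO CD103+CD11b- DCs (difference 3.87 ± 0.45 (SE), edgeR adjusted p = 0.00903).

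Other genes changed in one subset without a call in the other. Flvcr1 changed by 1.37 ± 0.14 here and by -0.42 ± 0.14 there on the log2 scale (difference 1.79 ± 0.20 (SE), edgeR adjusted p = 0.00685). Rab30 had 0.30 ± 0.19 against 2.5 ± 0.21 (difference 2.2 ± 0.28 (SE), edgeR adjusted p = 0.00986), and Cdh17 had -0.49 ± 0.45 against 4.08 ± 0.49 (difference 4.57 ± 0.65 (SE), edgeR adjusted p = 0.0134). Il18 and Il22ra2, by contrast, gave no called difference (1.33 ± 0.58 (SE), edgeR adjusted p = 0.423 for Il18, 1.92 ± 0.74 (SE), edgeR adjusted p = 0.35 for Il22ra2). Runx2, not called here, had 349.5, 324 and 155 CPM in WT and 129, 160.4 and 68 CPM in cKO CD103+CD11b- DCs, and the difference missed the limit (2.27 ± 0.45 (SE), edgeR adjusted p = 0.0541).

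**Figure D5:**
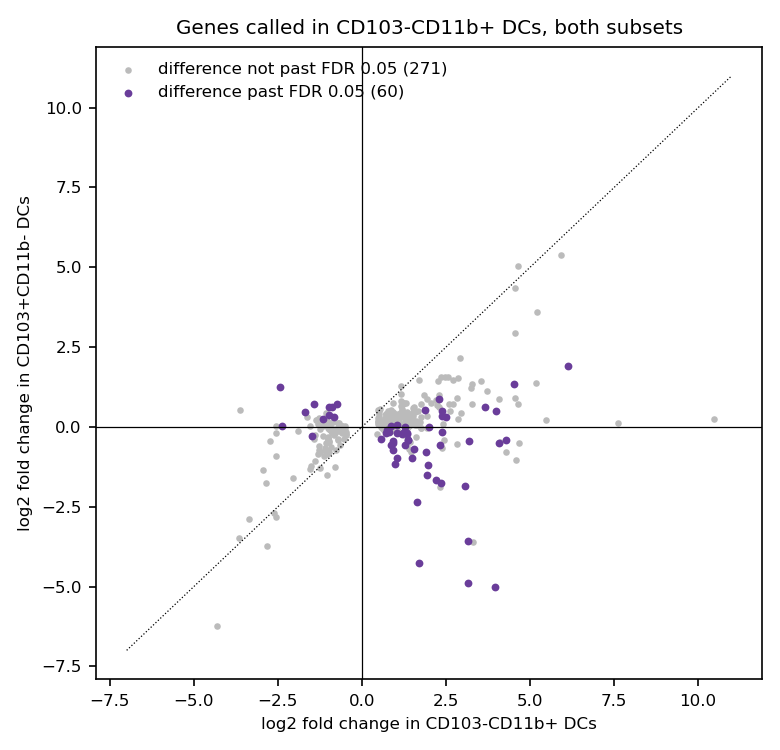
Log2 fold change of cKO against WT in CD103-CD11b+ DCs (x axis) and in CD103+CD11b- DCs (y axis) for the 331 genes called in the former, with a dotted line of equal effects. Purple points are the 60 genes whose 2 effects differ at an FDR under 0.05, and grey points the other 271, and Clec4a4 and Slc7a11 are among those to the right of 0 and below it.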

How the data were processed

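RNA of sorted intestinal DCs was sequenced after a library preparation adapted from single-cell RNA-seq. The authors trimmed the reads with Trim Galore, mapped them to GRCm38 with STAR 2.7, discarded alignments of low quality and duplicates, and used HTSeq without regard to strand for counting. The values they deposited are raw counts per gene, 1 file per sample, and the counter's 5 summary lines, 61.2% to 67.3% of reads, were left out. Names and positions are from GENCODE M21, which matched 99.8% of gene identifiers.

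Genes that reached 5 counts in any of the 12 samples were kept. After TMM normalization, 1 model of 4 groups was fitted in edgeR 4.0.16 and its quasi-likelihood test was used, with Benjamini-Hochberg adjustment. Standard errors were taken as the size of the log2 fold change divided by the square root of F. Calls needed a fold change over 1.3 at an FDR under 0.05. The steps were tested on simulated data. DESeq2 1.42.0 and other filters, tests and sample sets were alternatives.

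Named were the 10 called genes with the smallest p and the 10 with the largest change in each direction, 3 in each direction per level class, called list members, sort genes and Runx/Cbfb genes. Other genes named, and the promoters, were chosen after their values were seen. The members and lists were chosen with earlier results of these data known. Some name patterns also take in unrelated genes, as Sp140 in KLF and SP factors. Libraries of a group differed by more than sampling noise, with chi-square per degree of freedom from 2.46 to 23.2, so none was a duplicate. Some genes that the rule names are not reported here.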

Additional observations from a re-analysis of the deposited data

Results flagged for a closer look

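For the genes named with a value here, a test of the difference between the log2 fold change in CD103-CD11b+ DCs and that in CD103+CD11b- DCs, by edgeR's quasi-likelihood test at an FDR under 0.05 over all genes, singled out 22. Groups of 3 samples were too small for a test of single outlying samples.

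In 5 of these genes the log2 fold change was positive in CD103-CD11b+ DCs and below -0.50 in the other subset. The difference was 5.98 for Clec4a4, 3.87 for Slc7a11, 3.15 for H2-Eb2, 2.22 for Slc37a2 and 2.14 for Arhgap6. The fold changes in CD103+CD11b- DCs were -4.27 ± 0.53, -1.67 ± 0.34, -1.2 ± 0.34, -0.68 ± 0.27 and -1.16 ± 0.20 (SE), in that order. In that subset the decrease was not called for H2-Eb2 (edgeR adjusted p = 0.161) and Slc37a2 (edgeR adjusted p = 0.374). Cdh17, Mpzl2 and Flvcr1 lay just above the limit there, at -0.49, -0.45 and -0.42. Every difference here is the value in CD103-CD11b+ DCs minus the other.

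The adhesion genes Cdh17 and Mpzl2 had differences of 4.57 and 3.63. Itgad and 4931431B13Rik, whose reads cannot be told apart, had 3.19 and 4.24. For surface receptors the difference was 1.42 for Clec12a, 1.37 for Treml4, 2.04 for Cd1d1, 2.0 for Cd22 and 1.86 for Dcstamp. It was 3.48 for the transporter Abca13 and 1.79 for Flvcr1, 2.20 for Rab30 and 0.85 for Arhgap15. With a block for each genotype and replicate number, added after seeing the data, the difference was no longer called for Treml4 (1.4 ± 0.28 (SE), edgeR adjusted p = 0.0596) and Arhgap15 (0.84 ± 0.16 (SE), edgeR adjusted p = 0.0556), and it was called for the other 20 genes. Among genes called lower the difference without the block was -2.41 for Pianp, -1.42 for Dbn1, -1.35 for Arhgap26 and -1.20 for Rab3d.

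The calls of the difference also depended on the libraries in the fit, and without cKO replicate 2 the number over all genes was 46 in place of 134.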

How the results depend on the processing

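Numbers of calls given in pairs are genes called higher and lower. They were 364 and 209 with 5 or more counts in every sample, 659 and 477 with DESeq2, 578 and 476 with edgeR's likelihood ratio test, 59 and 12 at an FDR under 0.01, and 27 and 2 in the fit to the 6 libraries alone. The filterByExpr filter gave 160 lower genes and a fold change over 2 gave 58. With one library left out, they ranged from 84 to 307 higher and from 25 to 210 lower, and fewer samples enter those fits. The difference between subsets was called for 205 genes with no filter beyond 1 count, 504 with DESeq2, 413 with the likelihood ratio test, 19 at an FDR under 0.01, and 46 to 208 with one library left out. Beyond fewer samples and other limits, the cause was not tested. The counts not listed stayed within 1.5 times the reported ones.

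A replicate block in the model gave 560 higher and 289 lower calls and 330 calls of the difference between subsets. Deviations from the group mean correlated at 0.02, 0.422 and 0.186 across genes between WT and cKO libraries of the same number. WT replicate 1 correlated most with cKO replicate 3, at 0.305, so the numbers were not taken to pair the samples. Between the subsets, libraries of one genotype and number correlated at 0.357, -0.0846 and 0.352 in WT and at 0.112, 0.321 and 0.354 in cKO samples, and those of other numbers at -0.475 to 0.347 and at -0.314 to 0.0815. Since 1 WT pair was below 0.1, pairing was not taken there either, although each cKO pair was above 0.1 and above every cKO pair of other numbers. A block for each genotype and number, added after seeing the data, gave 328 calls of the difference, which included 119 of the 134.

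None of the 331 called genes changed direction in any alternative. Their calls were found again for 327 with filterByExpr, 329 with DESeq2, 330 with the block and 28 in the 6 libraries alone, where 331 could be tested in all but the first. With one library left out, the log2 fold change of Cbfb ran from -0.10 to 0.29 and that of H2-Ab1 from -0.09 to 0.52, lowest without cKO replicate 3, and that of Fcgr1 from -0.42 to 0.24, highest without WT replicate 2. Levels under about 1.53 CPM rest on 3 counts or fewer in the shallowest library.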
